A study of Saccharomyces cerevisiae with 2 samples.

Results

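Transcripts of the 10 yeast genes URA1, URA2, URA3, URA4, URA5, URA6, URA7, URA8, URA10 and FUR1, which encode enzymes of pyrimidine nucleotide synthesis and salvage, were compared between 2 strains of Saccharomyces cerevisiae. They were chosen by gene symbol from the longer deposited table, and all 10 were found once among its 5734 genes. The strain Y518, labelled a mutant and named in the series title as a high producer of glutathione, was set against 2-10515, labelled wild type. The labels give no genotype for either strain beyond these words, nor how Y518 was obtained. For both strains, seed cultures started from a single colony were grown for 18 h at 30 °C and 180 rpm, and RNA was taken after 24 h of fermentation. There was 1 library per strain. The differences therefore have no replicate check, no test between strains was possible, and they compare these 2 libraries.

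Pyrimidine nucleotides are built as a ring that is then attached to phosphoribosyl pyrophosphate (PRPP), the activated ribose donor. Ura2 makes carbamoyl phosphate and joins it to aspartate, Ura4 closes the ring, and Ura1 oxidises it to orotate. Ura5 and its paralogue Ura10 add PRPP, and Ura3 removes a carboxyl group to give UMP. Ura6 phosphorylates UMP, and Ura7 and its paralogue Ura8 convert UTP to CTP. Fur1 makes UMP directly from uracil, the salvage route. In budding yeast, UTP inhibits Ura2, and the zinc cluster activator Ppr1, which responds to pathway intermediates, is known to activate URA1, URA3, URA4 and URA10.

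Ppr1 binds paired CGG triplets, and the letters CGG and CCG with any 6 bases between them were sought in the 500 bases before each start codon. The fixed letters read the same on both strands, so 1 search covers both. Of the 10 genes, 3 held a match (URA1 with 2 matches, URA3 and URA4), against 162 of 6002 nuclear protein-coding genes (2.7%). Among 25 further genes of the pathway described below, 3 held one (FCY1, FUI1 and PHM8). URA1, URA3 and URA4 are all among the known Ppr1 targets named above, so their matches are not an independent result about the set. The windows below, with the motif in capitals, are shown because they mark which genes of the set carry the binding letters of the pathway's own activator. They are read 5′ to 3′ on the strand of the gene from the RefSeq R64 reference, and the sequence of these strains may differ.
URA1, first match (chrXI:24994-25023, plus strand): tttcttcacCGGGCTTTGCCGaaggttatt
URA1, second match (chrXI:25025-25054, plus strand): cacgatcttCGGCATTCGCCGaaaattttt
URA3 (chrV:116006-116035, plus strand): tttttgattCGGTAATCTCCGagcagaagg
URA4 (chrXII:963646-963675, plus strand): ttcatcattCGGAGAATTCCGatgaatcgg
The motifs ended 200 and 169 bases before the start codon in URA1, 140 bases before it in URA3 and 118 bases before it in URA4. The window of URA10 held no exact match. A match describes the letters in the window and is not a measured binding site.

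The deposited values are uniquely mapped reads per coding sequence, the percent of that sequence covered by reads, and RPKM (reads scaled to the coding length and to the library total). The libraries held 4.32 M reads in Y518 and 4.71 M in 2-10515. The 5415 genes that averaged 5 RPKM or more over both libraries were compared on the scale log2(RPKM + 1), and a difference of 2-fold or more on it was called. Folds of single genes leave out this added 1 RPKM: they divide the reads by the library total and carry an exact binomial 95% interval for counting error only. The spread between cultures is in none of these intervals. The median log2 ratio over all 5415 genes was 0.27, so the whole comparison was offset toward Y518. Gene values are also given after centring on that median.

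All 10 genes passed the RPKM minimum, and 9 of 10 had a higher RPKM in Y518. Most genes leaned the same way: of all 5415, 3459 had a log2 ratio of -0.03 (the value of PRS1, described below) or more. After centring URA7 (-0.01) lay below 0 as well as URA3. By the 2-fold rule 4 were higher in Y518 (URA10, FUR1, URA2 and URA8) and 0 were lower, while 6 were within 2-fold. Of all 5415 genes 19.9% were called higher and 8.88% lower by the same rule. The median log2 ratio of the 10 genes was 0.76, against 0.27 for all genes. After centring, URA10 and FUR1 were still called higher and URA2 and URA8 were within 2-fold, with 13.2% of all genes called higher and 13.6% lower. TMM scaling, a trimmed-mean scaling of the counts, also left 2 of the 10 called higher, with 13.5% of all genes higher and 13.2% lower. At a 1.5-fold rule 6 of the 10 were higher and 1, URA3, was lower, against 35.3% and 16.4% of all genes. Together the 10 genes took 0.175% of the reads in Y518 and 0.0838% in 2-10515, and 7542 and 3945 reads stood behind these shares. URA2 alone, the longest of the genes, held 4548 and 2203 of those reads, so the shares lean mostly on URA2. The 10 genes lie on 7 chromosomes, each has 1 exon, and none overlaps an annotated gene or has a near-identical copy in the R64 reference. The files name no genome build, and positions given here are those of R64.

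**Figure D1:**
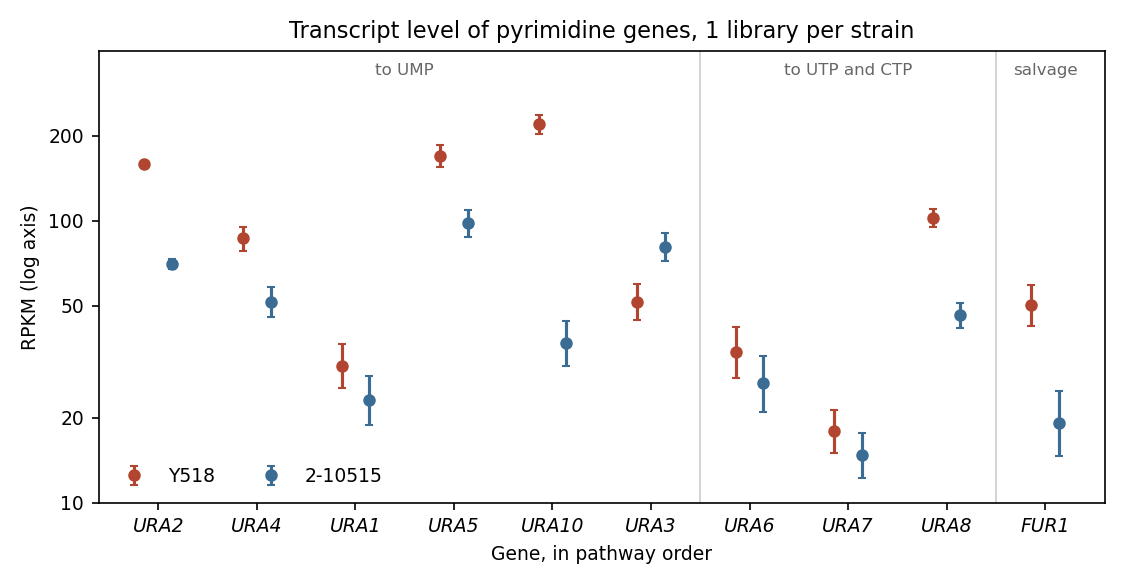
RPKM (log axis) of the 10 genes in pathway order, in the Y518 library (red, left of each pair) and the 2-10515 library (blue, right of each pair). Bars are exact Poisson 95% intervals for counting error; URA3 is the gene whose Y518 value (51.6 RPKM) lies below its 2-10515 value (80.6 RPKM), and URA10 has the widest gap (219 and 37.0 RPKM).

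The first enzyme of the pathway had more transcript in Y518. URA2 (YJL130C, chrX:165723-172367, minus strand) encodes the large fused protein that carries out the first pair of steps and is the point of feedback control. It had 4548 reads and 159 RPKM in Y518, against 2203 reads and 70.4 RPKM in 2-10515. That is a 2.25-fold excess with an interval of 2.14 to 2.37, the narrowest of the 10. URA2 is also the longest of the 10 genes, at 6645 bases, and had the most reads. Its coding sequence was covered over 99.94% in Y518 and 99.37% in 2-10515. The log2 ratio was 1.16, and 0.89 after centring, which is below the 2-fold line.

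The following pair of steps showed smaller differences. URA4 (YLR420W, chrXII:963785-964879, plus strand), dihydroorotase, had 409 reads and 86.5 RPKM in Y518, against 266 reads and 51.6 RPKM in 2-10515, a ratio of 1.68 (1.43 to 1.96). URA1 (YKL216W, chrXI:25215-26159, plus strand) encodes dihydroorotate dehydrogenase, which in this species is a cytosolic enzyme that passes electrons to fumarate. It had 125 reads and 30.6 RPKM in Y518, against 103 reads and 23.1 RPKM in 2-10515. The URA1 ratio of 1.32 had an interval of 1.01 to 1.74, which includes the ratio of the median gene, 1.21. Both genes were within 2-fold, with log2 ratios of 0.73 for URA4 and 0.39 for URA1, or 0.46 and 0.12 after centring.

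The largest difference of the set lay at orotate phosphoribosyltransferase, which is encoded by a pair of genes. URA10 (YMR271C, chrXIII:806865-807548, minus strand), regarded as the minor isozyme, had 648 reads and 219 RPKM in Y518, against 119 reads and 37.0 RPKM in 2-10515. Its excess was 5.94-fold, with an interval of 4.88 to 7.28, and its log2 ratio was 2.54, or 2.27 after centring. Of the 5415 genes, 134 had a ratio at least this high, URA10 included. URA5 (YML106W, chrXIII:56773-57453, plus strand), regarded as the major isozyme, had 500 reads and 170 RPKM in Y518, against 314 reads and 97.9 RPKM in 2-10515. Its ratio was 1.74 (1.51 to 2.01), within 2-fold, with a log2 ratio of 0.79, or 0.52 after centring.

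The order of the 2 isozyme genes differed between the libraries. URA10 made up 56.3% of the summed RPKM of the pair in Y518 (counting interval 53.4% to 59.2%) and 27.4% in 2-10515 (23.3% to 31.9%). A share within a library does not depend on how the libraries are scaled. The summed level of the pair was 390 RPKM in Y518 and 135 RPKM in 2-10515. Over 675 aligned bases the R64 coding sequences of URA10 and URA5 were 69.5% identical, and their longest shared run was 11 bases. Both genes lie on chromosome XIII.

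URA3 went the other way. URA3 (YEL021W, chrV:116167-116970, plus strand) encodes orotidine 5′-phosphate decarboxylase, which completes UMP and is widely used as a selectable marker in yeast. It had 179 reads and 51.6 RPKM in Y518, against 305 reads and 80.6 RPKM in 2-10515. The value in 2-10515 was 1.56-fold higher (1.29 to 1.89), a log2 ratio of -0.63 for Y518 over 2-10515 and of -0.91 after centring. On either scale it was within 2-fold. Coverage of URA3 was 94.90% in Y518 and 99.63% in 2-10515, which leaves 41 and 3 of its 804 bases without a read.

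The surroundings of the genes on the chromosomes were also looked at. On chromosome V, which carries URA3, the median log2 ratio of 259 genes was -0.11, the lowest of the 16 nuclear chromosomes. There 9.65% of genes were called higher and 14.7% lower. Of the 20 genes nearest to URA3, 1 was called higher and 4 lower, with a median of -0.25. TIM9, the next gene downstream, had 178 reads in Y518 and 281 in 2-10515. GEA2, the next gene upstream, was on the other side of 0, with 351 and 224 reads and a log2 ratio of 0.72. The part of the chromosome in the URA3 value was not tested. Of the 20 genes nearest to URA6, 0 were called higher and 4 lower, with a median of -0.16. Of the 16 nearest to URA1, 1 was called higher and 4 lower, with a median of -0.11. Of all genes 19.9% were called higher and 8.88% lower. URA6 and URA1 themselves had log2 ratios above 0. The nearest genes had medians of -0.09 at URA2, 0.14 at URA8, 0.21 at FUR1, 0.24 at URA7, 0.40 at URA10, 0.50 at URA5 and 0.85 at URA4. The value at URA4 was above the gene's own log2 ratio of 0.73. Some adjoining genes were called higher as well, by the rule that called 19.9% of all genes higher. At FUR1 they were YHR127W (log2 ratio 1.63) and ARP1 (1.58). At URA8 they were VPS25 (1.30) and SOD1 (2.27), and at URA2 it was TRK1 (1.36). At URA7, itself within 2-fold, it was MIN6 (1.23). The other adjoining genes with a value were within 2-fold, from -0.55 (MRPL16 at URA7) to 0.72 (GEA2). They include AIM23 at URA2 (-0.09) and RRN9 at URA10 (0.50).

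**Figure D2:**
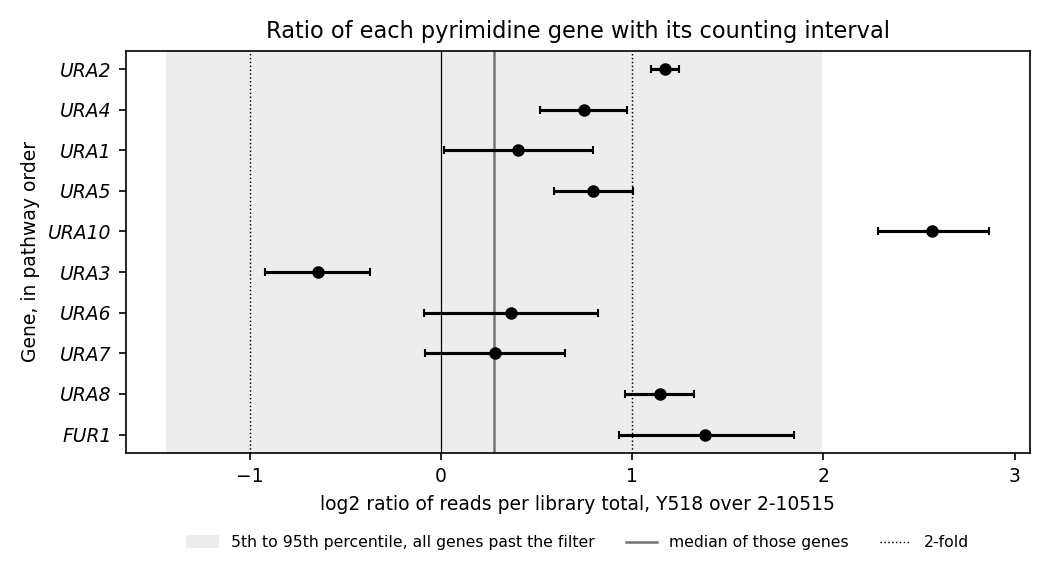
Log2 ratio of reads per library total, Y518 over 2-10515, for the 10 genes in pathway order from top to bottom, with exact binomial 95% counting intervals. The grey band holds the middle of all 5415 genes (5th to 95th percentile) and the grey line their median (0.28 on this scale); URA10 lies to the right of the band and URA3 is the one gene left of 0.

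The steps on either side of OMP therefore stood in a different ratio in the libraries. The summed RPKM of URA5 and URA10 was 7.55 times that of URA3 in Y518 and 1.67 times in 2-10515. URA3 was taken as the denominator because it had the lowest ratio of the 10. That choice fixes the direction of these values and makes each as large as any of the 10 could make it. The counting intervals do not cover that choice, so neither direction nor size is a separate result. Relative to URA3, the other 9 genes had ratios in Y518 over 2-10515 that ran from 1.90-fold for URA7 (counting interval 1.38 to 2.61) to 9.26-fold for URA10 (7.03 to 12.3). Scaling between the libraries does not enter them. The 3 genes with the Ppr1 letters had log2 ratios of 0.73 (URA4), 0.39 (URA1) and -0.63 (URA3), and the 4 known Ppr1 targets spanned the whole range of the set. Among genes past the RPKM minimum with a match in the R64 annotation, those with the letters had a median log2 ratio of 0.15 (148 genes) and those without had 0.28 (5256 genes). PPR1 itself was below the RPKM minimum, with 48 reads in Y518 and 26 in 2-10515 and only 51.53% and 37.53% of its length covered.

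Of the 4 listed genes on the way from UMP to CTP, URA8 was called higher in Y518 and YNK1, described with the other pathway genes below, was called lower, against 19.9% and 8.88% of all genes. After centring 0 were higher and 1, YNK1, was lower, against 13.2% and 13.6%. URA6 (YKL024C, chrXI:392526-393140, minus strand), the UMP kinase, had 91 reads and 34.3 RPKM in Y518, against 77 reads and 26.6 RPKM in 2-10515. Its ratio of 1.29 had an interval of 0.94 to 1.77 that includes 1. The URA6 log2 ratio was 0.35, or 0.08 after centring. URA8 (YJR103W, chrX:620754-622490, plus strand), a CTP synthase, had 766 reads and 102 RPKM in Y518, against 378 reads and 46.2 RPKM in 2-10515. Its excess was 2.21-fold (1.95 to 2.51), with a log2 ratio of 1.13, and 0.85 after centring. URA7 (YBL039C, chrII:143989-145728, minus strand), the isozyme regarded as the major CTP synthase, had 135 reads and 18.0 RPKM in Y518, against 121 reads and 14.8 RPKM in 2-10515. The URA7 ratio of 1.22 had an interval of 0.94 to 1.57, and its log2 ratio of 0.27 became -0.01 after centring.

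URA8 thus had more transcript than URA7 per length in both libraries. It made up 85.0% of the summed RPKM of the pair in Y518 (82.5% to 87.3%) and 75.8% in 2-10515 (71.8% to 79.5%). The sum of the pair was 120 RPKM in Y518 and 61.0 RPKM in 2-10515. Over 1731 aligned bases the coding sequences were 72.2% identical with a longest shared run of 17 bases. URA7 had the lowest RPKM of the 10 genes in both libraries and the lowest coverage, 91.32% in Y518 and 88.56% in 2-10515.

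**Figure D3:**
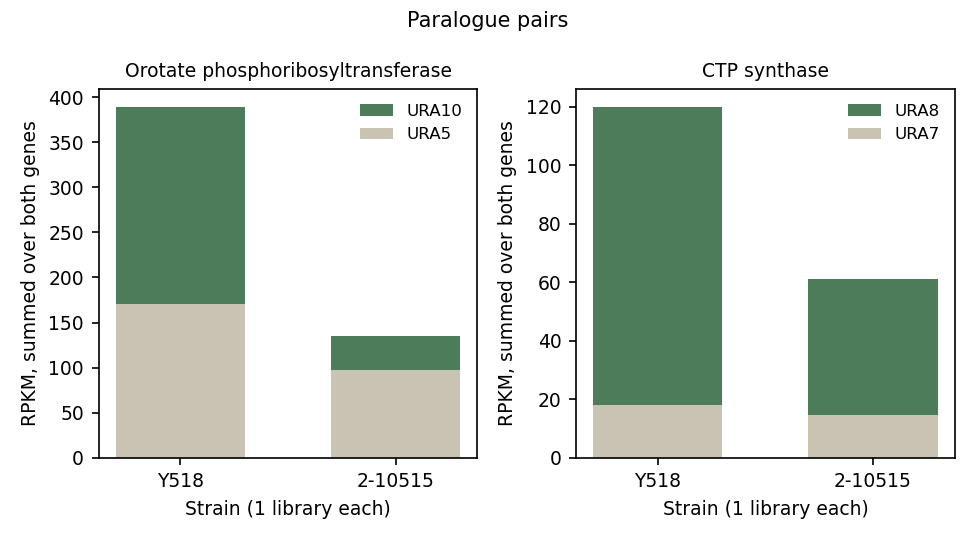
RPKM of the isozyme pairs, stacked, in Y518 (left bar) and 2-10515 (right bar), 1 library each without error bars. URA10 is the larger part of its pair in Y518 (56.3%) and the smaller in 2-10515 (27.4%), while URA8 is the larger part in both (85.0% and 75.8%).

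The salvage enzyme gene FUR1 (YHR128W, chrVIII:362115-362765, plus strand), uracil phosphoribosyltransferase, was also higher in Y518. It had 141 reads and 50.2 RPKM in Y518, against 59 reads and 19.2 RPKM in 2-10515. The excess of 2.61-fold had a wide interval, 1.91 to 3.59, since FUR1 had the fewest reads of the set in 2-10515. Its log2 ratio was 1.34, and 1.06 after centring, just past the 2-fold line.

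The order of levels differed between the libraries. In Y518 the order was URA10, URA5, URA2, URA8, URA4, URA3, FUR1, URA6, URA1 and URA7, over a 12.2-fold span. In 2-10515 it was URA5, URA3, URA2, URA4, URA8, URA10, URA6, URA1, FUR1 and URA7, over a 6.63-fold span. Adjoining genes could not be ordered within counting error for URA5 and URA2, URA3 and FUR1, and URA6 and URA1 in Y518. In 2-10515 the same held for URA4 and URA8 and for the run from URA6 through URA1 and FUR1 to URA7, taken a neighbour at a time. URA10 stood first in Y518 and at the sixth place in 2-10515, and URA3 stood at the sixth place in Y518 and the second in 2-10515. Among the RPKM values of the 5415 genes, the 10 genes ran from percentile 16.1 (URA7) to 85.1 (URA10) in Y518 and from 18.0 (URA7) to 72.2 (URA5) in 2-10515. URA10 was at percentile 45.8 in 2-10515.

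Genes around these enzymes were taken from lists of 25 further pathway genes, of which 23 passed the RPKM minimum. Among these 23, 3 were called higher in Y518 and 5 lower, with a median log2 ratio of -0.11, below the 0.27 of all genes. Of all genes 19.9% were called higher and 8.88% lower. After centring 2 of the 23 were higher and 7 lower, against 13.2% and 13.6% of all genes.

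Uptake and salvage of bases held genes on both sides. FUR4, the uracil permease, had 273 reads in Y518 and 84 in 2-10515, a 3.54-fold excess (2.77 to 4.58), so that the uracil permease and the uracil-using enzyme FUR1 were both called higher. The purine-cytosine permease gene FCY2 had 968 reads in Y518 and 2823 in 2-10515, 2.67-fold higher in 2-10515 (2.48 to 2.88). Its relative FCY22 was 2.37-fold higher in 2-10515 and FCY21 1.99-fold. FCY21 was within 2-fold before centring and called lower in Y518 after it. These 3 genes lie on chromosome V like URA3. So do PRS2 and PHM8 of the lists, with log2 ratios of 0.68 and -0.11. Cytosine deaminase gene FCY1, which turns cytosine into uracil and lies on chromosome XVI, had 333 reads in Y518 and 919 in 2-10515 and was called lower in Y518. The uridine permease gene FUI1 had 137 and 266 reads, within 2-fold before centring and called lower after it. In the list of salvage genes URK1, uridine kinase, had a ratio of 1.58 (1.24 to 2.02). URH1 and CDD1, which act on nucleosides, had 60 and 53 reads in Y518 and 78 and 41 in 2-10515, with intervals that include 1.

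YNK1, the nucleoside diphosphate kinase that makes UTP from UDP, had the lowest ratio of the lists. It had 683 reads and 342 RPKM in Y518, against 2730 reads and 1255 RPKM in 2-10515, and was 3.66-fold higher in 2-10515 (3.37 to 3.99). It lies between URA6 and the CTP synthases in the pathway, and its level was above that of all 10 enzymes in both libraries. Of the 5 PRPP synthetase genes 0 were called in either direction, against 19.9% of all genes called higher and 8.88% lower. Their log2 ratios ran from -0.03 (PRS1) to 0.68 (PRS2) with a median of 0.41.

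In the thymidylate branch, which makes the DNA building block dTTP, CDC8 and CDC21 were called higher among 3 genes that passed the minimum. Of all genes 19.9% were called higher and 8.88% lower. After centring 1 of the 3, CDC8, was called higher, against 13.2% of all genes. CDC8, thymidylate kinase, had 149 reads in Y518 and 47 in 2-10515, a 3.46-fold excess (2.48 to 4.91). CDC21, thymidylate synthase, had 171 and 84 reads, a ratio of 2.22 (1.70 to 2.92), and was within 2-fold after centring. DUT1, the dUTPase gene, had 16 and 23 reads, and DCD1 was below the RPKM minimum with 19 and 15.

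Carbamoyl phosphate is also made for arginine by a separate enzyme. CPA1, which encodes a part of it, had 3314 reads and 621 RPKM in Y518, against 7634 reads and 1312 RPKM in 2-10515, 2.11-fold higher in 2-10515 (2.03 to 2.20). URA2, whose product makes carbamoyl phosphate for pyrimidines, was on the other side, at 159 and 70.4 RPKM. The genes UGP1 and QRI1, which spend UTP on nucleotide sugars, had log2 ratios of -0.27 and -0.48, and the nucleotidase genes SDT1 and PHM8 had 0.23 and -0.11. All 4 were within 2-fold.

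**Figure D4:**
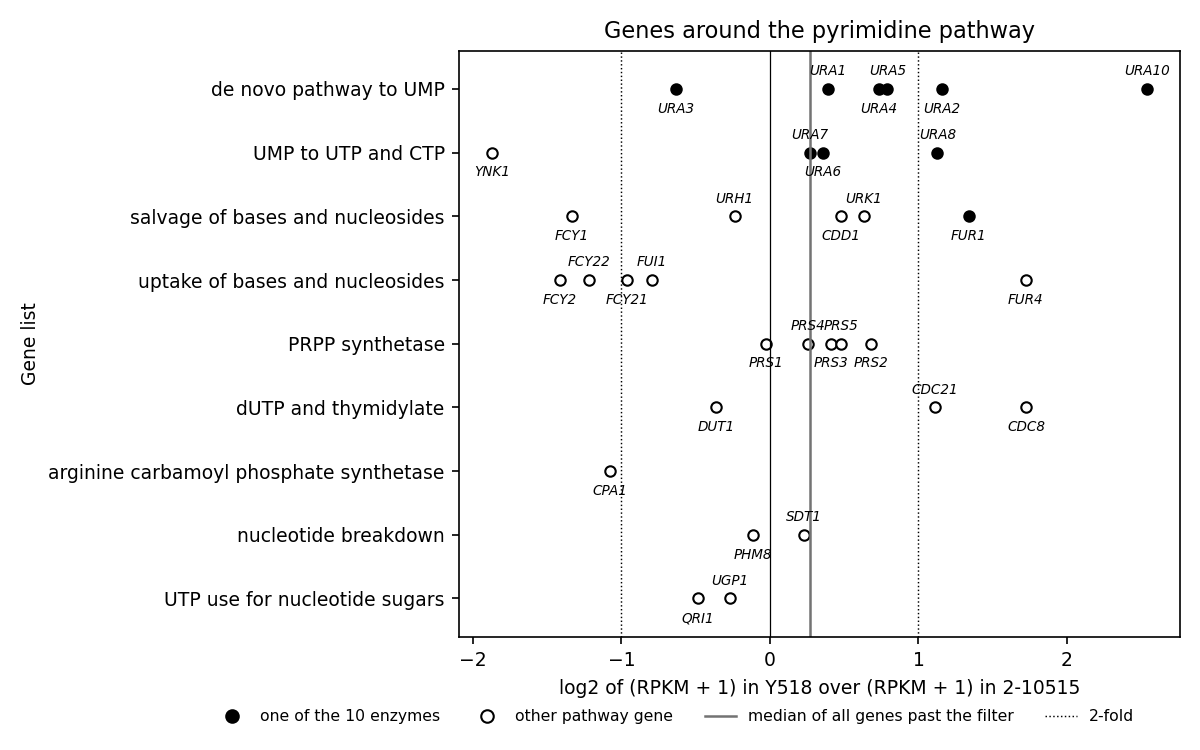
Log2 ratio of RPKM + 1, Y518 over 2-10515, for every listed gene that passed the RPKM minimum, a row per list, filled circles for the 10 enzymes and open circles for other pathway genes. The grey line is the median of all 5415 genes (0.27) and dotted lines mark 2-fold; URA10 is farthest right (2.54) and YNK1 farthest left (-1.87).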

How the data were processed

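RNA libraries of Y518 and 2-10515 were sequenced by standard Illumina methods, per the labels. Per the file headers, the authors deposited for each coding sequence a uniquely mapped read count, the percent of its length covered, and RPKM. Which aligner, counting tool, genome build and strand handling were used is not given in the sources used here. The deposited RPKM equalled the count over length and library total (0 mismatches beyond a relative difference of 1e-06), and counts matched the single-library tables (0 mismatches).

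The 10 genes and all lists were chosen with earlier results of these data known, and every one of the 10 is named. One further pathway gene is not reported here. The log2 ratio, intervals, shares and medians were computed with pandas 2.3.3 and SciPy 1.17.1. The 2-fold rule was also run on counts simulated with counting error alone. Those counts held no spread between cultures, so the run cannot show how the rule performs between strains. TMM scaling used edgeR 4.0.16 and no test of it. Positions and sequences come from R64, joined through the versioned RefSeq accession and with equal coding length for all 10 genes. Copies (at least 95% identity over 100 bases) were sought with BLAST+ 2.17.0. The intervals cover counting error only and take each read as independent. PCR duplicates are not independent molecules, so where present they make the intervals too narrow even for counting error.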

Additional observations from a re-analysis of the deposited data

How the results depend on the processing

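No paired analysis was possible because each strain had 1 library, and no library could be left out. With a pseudocount of 0.1 or 5 RPKM, 4 of the 10 enzymes still passed the 2-fold rule as higher in Y518 and 0 as lower. All 10 passed the RPKM minimum, so leaving it out could not change these counts. Of all 5415 genes, 1131 were higher and 503 lower at 0.1 RPKM, and 877 and 420 at 5 RPKM. Scaling moved this. The count higher was 2 when centred on the median of all genes, 2 with TMM and 2 with the median of count ratios. It was 3 with library totals taken without the 100 most abundant genes. Of all 5415 genes, 714, 730, 715 and 839 were higher under these 4 scalings, and 737, 713, 731 and 602 lower. The median log2 ratio of the 10 genes was then 0.49, 0.50 and 0.49, and 0.60 with library totals taken without the 100 most abundant genes. Those scalings shifted the median of all genes by -0.27, -0.26, -0.27 and -0.16, and the share of higher among all called genes, 69.1% as deposited, became 49.2%, 50.6%, 49.4% and 58.2%. URA10 and FUR1 stayed at least 2-fold higher under the 7 alternatives run for each gene, URA2 under 4 and URA8 under 3. URA3 was lower in Y518 under all 7 (log2 -0.91 to -0.60), and URA7 changed sign when centred (-0.01) and kept it under the other 6. At a 1.5-fold rule 1 enzyme, URA3, was called lower. Among the further pathway genes, the 1.5-fold rule called 5 higher and 7 lower, against 35.3% and 16.4% of all genes. Their median log2 ratio was -0.03 without the RPKM minimum, -0.388 when centred, -0.377 with TMM, -0.39 with the median of count ratios and -0.274 with totals without the most abundant genes. Shares within the isozyme pairs moved by less than their intervals when reads replaced RPKM. The genes of a pair are almost equal in length (684 and 681 bases for URA10 and URA5, 1737 and 1740 for URA8 and URA7). The shares could therefore hardly have moved. No listed gene had a near-identical copy, so leaving such genes out changed nothing. At the depth of these libraries the intervals of URA6 and URA7 include a ratio of 1.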
